A study of Bombus terrestris with 20 samples.

Results

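Newly laid eggs of unmated workers were compared with the ovaries in which such eggs are made, in the bumblebee Bombus terrestris. The comparison used 5 of the 20 samples of the series, chosen by their labels alone. They are the 2 libraries of worker-laid eggs and the 3 libraries of ovary from ovary-active (OA) workers. Of the genes in the deposited tables, 10087 were in both the egg table and the ovary table and could be set side by side.

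Each egg library was made from a pool of 24 eggs that were at most 1 h old, laid by workers of unknown age kept in microcolonies of 3 workers. Each OA library was made from the pooled ovaries of 7 workers with ovary scores of 4 to 6, taken from queenright colonies, that is with a queen. Ovary from ovary-inactive (OI) workers, with scores of 0 to 1 and 7 workers per pool, gave 3 more libraries that serve here as a further readout. The labels name no transgene and no agent given to any of these groups. Eggs and ovaries came from different colonies and were sequenced by different providers, and an OA ovary holds eggs at all stages beside its own somatic cells. Tissue, colony and sequencing therefore cannot be told apart in the differences below, and in these bulk samples fewer cells of a type and less RNA per cell cannot be told apart either.

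In the insect ovary, nurse cells make most of the messenger RNA that an egg receives, and they pass it into the growing oocyte. Follicle cells surround the oocyte and make the eggshell, and they are shed before the egg is laid. A newly laid egg has barely begun to transcribe its own genome and depends on maternal RNA. Eggs of unmated workers are unfertilised and develop into males in bees.

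The egg values were estimated counts that the authors had corrected for transcript length, whereas the ovary values were normalized counts with no such correction. Each library was scaled here to a sum of 1000000 over the 10087 shared genes, and values are given as parts of that sum, in ppm. Because of the unlike units, every gene carries a term that depends on its transcript length, which makes long transcripts look lower in eggs and short ones higher. That term was not removed, since transcript lengths were not used here, and no test was made across the tables. A gene was called higher in eggs when the lower of the egg libraries was at least 4-fold above the highest OA library, on log2(ppm + 1). It was called lower when the higher egg library was at least 4-fold below the lowest OA library. It was called kept when the means were within 2-fold. The deposited values summed to 50166010 and 52324103 in the eggs and to between 28686261 and 32308744 in the OA ovaries. A level of 1 ppm thus stood for an estimated count of 50 to 52.3 in eggs and a normalized count of 28.7 to 32.3 in OA ovary.

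Egg replicate 1 stood apart from egg replicate 2. Of the 10661 genes of the egg table, 313 were at least 16-fold higher in replicate 1, on log2(ppm + 0.2), and 0 were so in the opposite direction. These genes held 1.88% of replicate 1 and 0.0107% of replicate 2. A name was at hand for 27 of them. The highest value was that of LOC100647563, which had no name, with 1515 ppm of the egg table in replicate 1 and 0.512 in replicate 2. Genes of cuticle and muscle were among those with a name. Pro-resilin (LOC100642973), the precursor of an elastic cuticle protein, was at 885 ppm of the egg table in replicate 1 and 0.0655 in replicate 2, and the endocuticle structural glycoprotein SgAbd-4 (LOC100643109) was at 213 and 0. The contractile protein gene myosin regulatory light chain 2 (LOC100642903) was at 284 and 0.364, and troponin I (LOC100642480) at 144 and 0.579. The antimicrobial peptide gene Def was at 8.17 and 0. In the lists described below, only 2 of 7 muscle genes and 1 of 4 haemocyte genes were at least 16-fold higher in replicate 1, which are these 3. In OA ovary the mean was 0.0116 ppm for pro-resilin and 1.58 for SgAbd-4. Of the 313 genes, 274 were in the ovary table, where 1 was called higher and 38 lower. Among all shared genes 1.31% were higher and 8.66% lower. Each call needs both egg libraries, and values of both are given below. What led to the high values of replicate 1 was not tested.

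**Figure D1:**
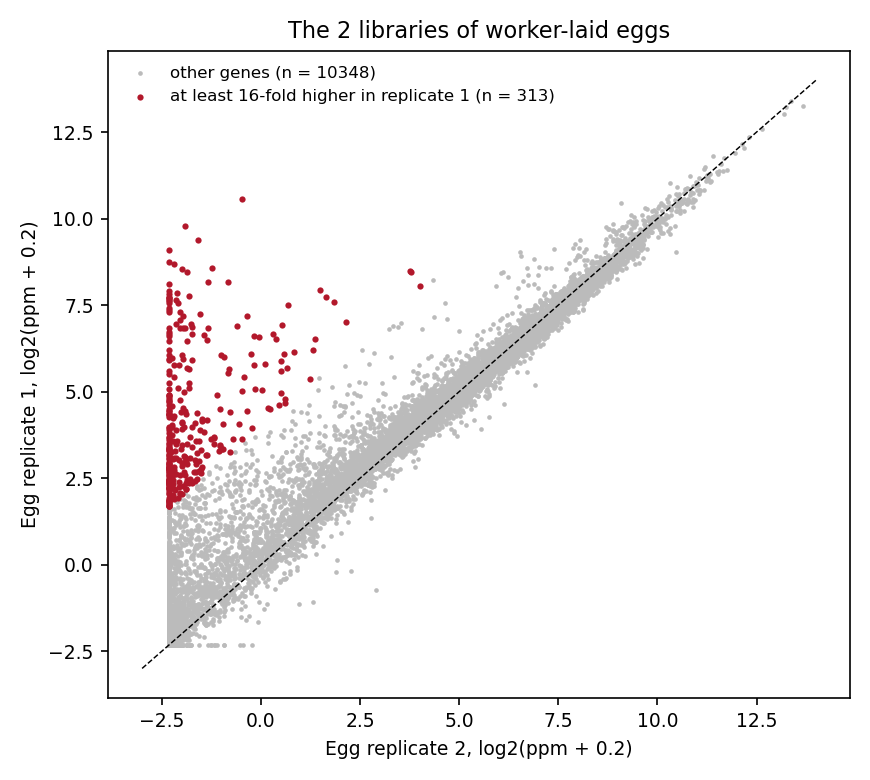
Levels in ppm of the egg table, plus 0.2 and on a log2 scale, in egg replicate 2 (horizontal) and egg replicate 1 (vertical), 1 point per gene, with the line of equality dashed. The 313 genes at least 16-fold higher in replicate 1 lie along the left edge, and 0 genes lie as far on the opposite side.

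Most of the transcripts of the laying ovary were also found in the eggs. Of 10087 genes, 5579 (55.3%) were kept, 874 (8.66%) were lower in eggs, 132 (1.31%) were higher, and 3502 met none of the rules. The kept genes include genes near 0 in both eggs and ovary, since that rule sets no minimum level. At 1 ppm or more were 8666 and 7886 of the shared genes in egg replicates 1 and 2 and 8751 to 8916 in the OA libraries. The median difference of eggs from OA ovary was -0.32 on the log2 scale, with quartiles of -1.32 and 0.42. Of the 7077 genes at 10 ppm or more in all OA libraries, 5721 (80.8%) were at that level in both egg libraries. Of the 5981 genes at that level in both egg libraries, the same 5721 were 95.7%. There were 112 genes under 1 ppm in both egg libraries and at 10 or more in all OA libraries, and 6 genes with the opposite pattern. Without egg replicate 1, 1464 genes were lower and 202 higher, and without egg replicate 2, 883 were lower and 265 higher. Leaving out a library can only add such calls, since these rules use the nearest libraries. With rank percentiles in place of log2 values 390 were lower and 249 higher, and with a pseudocount of 5 in place of 1 ppm 460 were lower. Under 1 ppm in egg replicate 2 alone were 361 genes at 10 or more in all OA libraries.

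**Figure D2:**
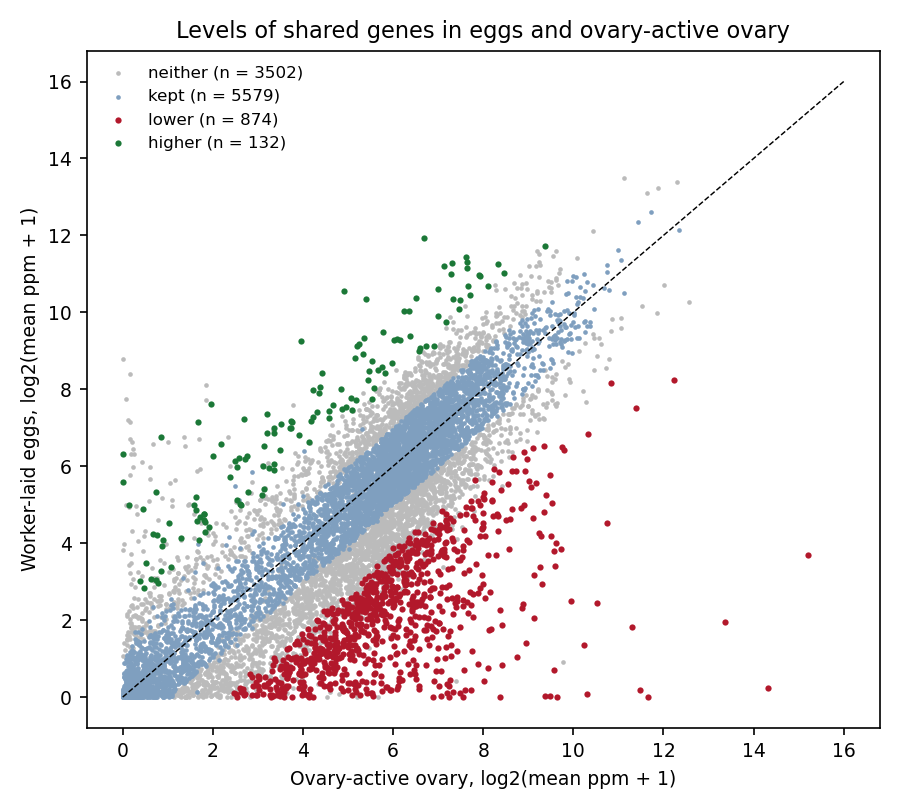
Mean level in OA ovary (horizontal, 3 libraries) and in worker-laid eggs (vertical, 2 libraries), as log2(mean ppm + 1), 1 point per shared gene, coloured by call, with the line of equality dashed. The 874 lower genes reach farther from the line than the 132 higher ones, down to genes at or near 0 in eggs.

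The order of the genes was more alike among libraries of 1 kind than between eggs and ovary. Spearman's rho across the 10087 genes was 0.955 between the egg libraries, 0.971 to 0.988 among the OA libraries, and 0.776 to 0.828 between eggs and OA ovary. These values are across genes, which are not independent, and the part of the unlike length correction in the lower values between eggs and ovary was not tested. Of the 100 genes with the highest mean value in OA ovary, 35 were among the 100 highest in eggs, 54 were kept, and 15 were lower. Of the 100 highest in eggs, 21 were called higher. Among all shared genes 55.3% were kept, 8.66% lower and 1.31% higher. Genes picked for a high value in 1 group are more apt to be called in its favour, since the calls use the same values.

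The genes that eggs lacked were led by those with the highest values in OA ovary, which are not per length. LOC105665834, an uncharacterized protein, was at 20093, 16068 and 25124 ppm in the OA libraries and at 0.313 and 0.0534 in the eggs. LOC100648536 had the highest value of all in OA ovary, with 34821, 21200 and 56794 ppm, and was at 11.4 and 12.3 in eggs. LOC100648421 was at 8749, 9116 and 13934 ppm in OA ovary and at 3.44 and 2.23 in eggs. These were the 3 highest genes of the OA ovary by this measure, and all were at least 1595-fold lower in eggs between the nearest libraries on the log2(ppm + 1) scale. LOC105665921 was at 3083, 2783 and 3780 ppm in OA ovary and was listed at 0 in both egg libraries. LOC100646845 was likewise listed at 0 in both egg libraries and was at 324, 365 and 308 ppm in OA ovary. No fold is given for these last genes.

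The genes just named were also far lower in OI ovary than in OA ovary, which did not hold for the lower genes as a class. Over all 874 lower genes the median was 57.5 ppm in OI ovary and 53.0 in OA ovary, and 87.9% were at 10 ppm or more in OI ovary. Over all shared genes these medians were 53.8 and 42.5 ppm, and 75.9% were at that level in OI ovary. OA and OI ovary share a table and were tested with limma on log2(normalized count + 1), in which 27.3% of 9496 genes were higher in OA and 26.7% higher in OI at an adjusted p under 0.05. With libraries scaled to equal totals in that test, 1572 genes were higher in OA and 3794 in OI, against 2592 and 2531, and the median over the tested genes moved from 0.02 to -0.32. The OA libraries enter both this test and the calls above, so the results are set side by side and not counted as 2 lines of evidence. LOC100648536 was at 5.02, 4.94 and 4.67 ppm in OI ovary, a log2 fold change of 13.1 ± 0.348 (SE, limma adjusted p = 1.31e-06). LOC100648421 was at 34.8, 29.4 and 38.6 ppm in OI ovary (8.58 ± 0.238, limma adjusted p = 1.39e-06). LOC105665834 was at 0.997, 187 and 0.562 ppm, so OI replicate 2 stood far above the others and the error of the fold change was larger (12.3 ± 1.9, limma adjusted p = 0.00156).

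LOC100648898 is annotated as major royal jelly protein 1, but per the paper its only counterpart in honeybee and Drosophila is yellow-g, a gene that insect ovaries express and that normal eggs require. It was at 819, 336 and 1228 ppm in OA ovary and at 0 and 0.0179 in eggs. In OI ovary it was at 0.0374, 0.227 and 0.263 (12.2 ± 0.641, limma adjusted p = 3.07e-05). A separate gene, the royal jelly protein-like LOC100651683, was at 17.3, 21.3 and 5.41 ppm in OA ovary and at 0.798 and 0.0447 in eggs, which fell short of the rule.

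For other genes lower in eggs, the levels in active and inactive ovary overlapped. LOC100650035 was at 3152, 3000 and 2460 ppm in OA ovary, at 2258, 2877 and 4032 in OI ovary, and at 0.278 and 0 in eggs. LOC100646373 was at 2426, 3054 and 2074 ppm in OA ovary, at 2218, 2495 and 3376 in OI ovary, and at 4.96 and 0.0835 in eggs. The OA and OI libraries overlapped in both genes, with limma adjusted p of 0.372 and 0.398. UDP-glucuronosyltransferase 1-8 (LOC100642358), of a family that conjugates sugars to small molecules, was at 381, 428 and 214 ppm in OA ovary, at 484, 550 and 946 in OI ovary, and at 1.58 and 0 in eggs. Here every OI library was above every OA library, with a limma adjusted p of 0.111 that ranged from 0.0383 to 0.333 over 10 alternative settings.

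**Figure D3:**
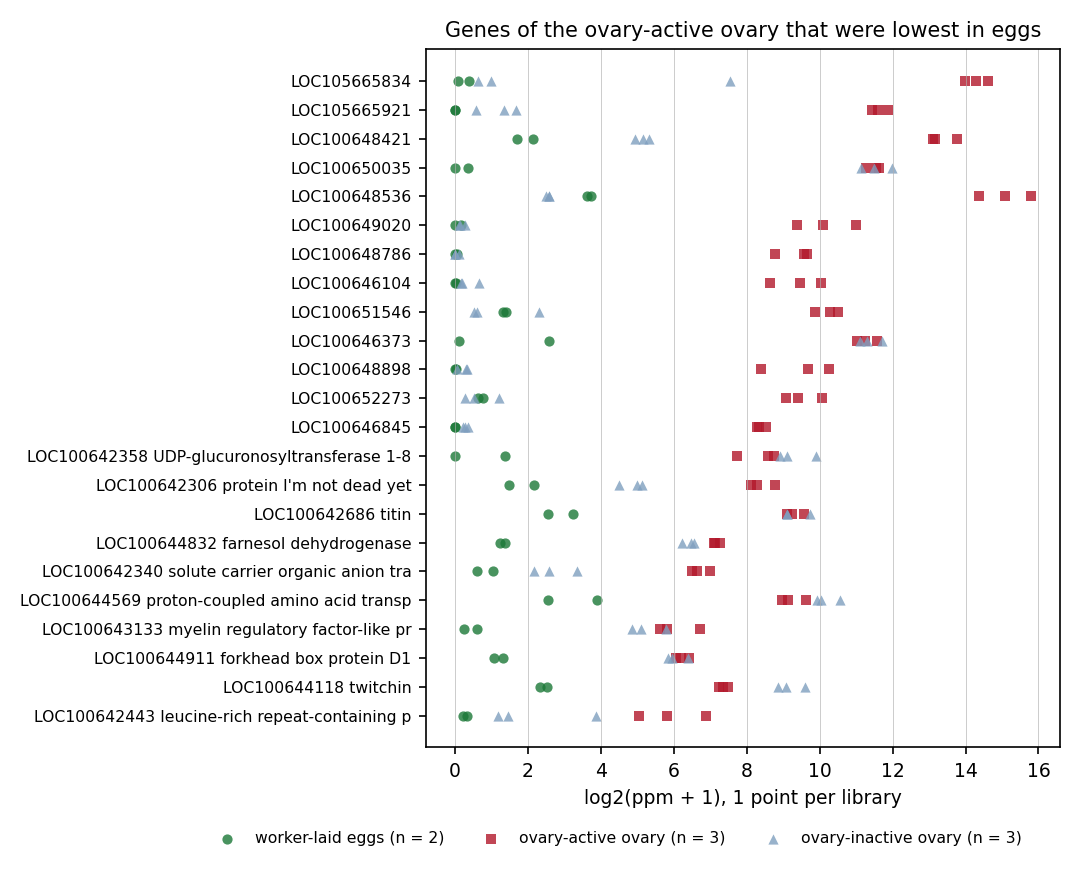
Level as log2(ppm + 1) of the 13 called genes with the largest gap below the OA ovary and of the 10 with the largest gap that have a descriptive name, 1 point per library (eggs 2, OA ovary 3, OI ovary 3). Egg points lie left of all OA points in every row, while OI points lie near the eggs for LOC105665921 and near the OA points for LOC100650035.

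Gene names were at hand for 2206 of the 10087 shared genes, from the part of the study's gene lists used here, which covers the start of the order of gene symbols. Most of these names come from a list of genes expressed in eggs, so among named genes those missing from eggs are under-counted. In the range of symbols where nearly all genes had a name (1049 of 1071), 57.5% were kept, 7.56% lower and 0.373% higher. Names of the remaining genes were not used here.

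The named genes with the largest gaps below the ovary had various roles. Protein I'm not dead yet (LOC100642306), which carries citrate into cells in Drosophila, was at 438, 275 and 309 ppm in OA ovary and at 3.51 and 1.78 in eggs. Farnesol dehydrogenase (LOC100644832), an enzyme of the juvenile hormone route, was at 140, 137 and 155 ppm in OA ovary and at 1.35 and 1.61 in eggs. The solute carrier organic anion transporter LOC100642340 was at 127, 89.6 and 97.9 ppm in OA ovary and at 1.07 and 0.529 in eggs. In each of these genes the nearest libraries were over 40 times apart, with 61.2-fold, 53.0-fold and 43.9-fold on the log2(ppm + 1) scale. Titin (LOC100642686), a giant muscle protein, was at 754, 551 and 599 ppm in OA ovary and at 8.44 and 4.91 in eggs. The length term, which makes long transcripts look lower in eggs, was not measured for it. Forkhead box protein D1 (LOC100644911), a transcription factor, was at 65.5, 72.8 and 85.2 ppm in OA ovary and at 1.48 and 1.10 in eggs. Leucine-rich repeat-containing protein 70 (LOC100642443) was at 32.1, 116 and 55.3 ppm in OA ovary and at 0.262 and 0.164 in eggs.

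The eggshell list held 3 named genes, all laccases, copper oxidases that in insects harden cuticle. All 3 were lower in eggs, beside 8.66% of all shared genes, with a median difference of -3.95. Laccase-1 (LOC100643728) was at 120, 54.2 and 90.8 ppm in OA ovary and at 5.27 and 3.01 in eggs. Laccase-4 (LOC100642533) was at 85.7, 55.3 and 60.3 ppm in OA ovary and at 12.2 and 0.416 in eggs, so the egg libraries were far apart. Laccase-3 (LOC100644956) was at 46.4, 28.6 and 32 ppm in OA ovary and at 5.49 and 2.54 in eggs. The basement membrane list, for the sheet that lies under epithelia such as the follicle, held 3 genes with 1 lower. Peroxidasin (LOC100642607), which cross-links collagen, was at 246, 188 and 100 ppm in OA ovary and at 4.52 and 0.493 in eggs.

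Ecdysteroid genes did not move together. Insect ovaries make ecdysteroids, the moulting hormones, and load them into eggs. Of 7 genes of the list, 1 was lower, 3 were kept and 0 were higher, with a median of -0.27. Among all shared genes 8.66% were lower and 55.3% kept. Cytochrome P450 307a1 (LOC100642619), an early enzyme of ecdysteroid synthesis, was at 118, 82.3 and 47.0 ppm in OA ovary and at 0.912 and 0.106 in eggs. Cytochrome P450 315a1 (LOC100644009), which acts near the end of the same route, was at 664, 785 and 624 ppm in OA ovary and at 1762 and 1831 in eggs, a difference of 1.38. The difference of cytochrome P450 315a1 met no rule, and the length term was not removed from either enzyme. Both were higher in OA than in OI ovary, with log2 fold changes of 2.16 ± 0.32 (limma adjusted p = 0.00135) and 1.92 ± 0.42 (limma adjusted p = 0.0066).

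Of the markers of other tissues, 1 of 7 muscle, 0 of 2 fat body, 0 of 4 haemocyte and 1 of 6 nervous tissue genes were called lower, and 0 were higher. Of all 10087 shared genes, 8.66% were called lower and 1.31% higher, and 6240 had a negative difference. The 7 muscle genes summed to 780 and 295 ppm in eggs and to between 1372 and 1485 in OA ovary, and their median difference was -2.01. The list's name patterns miss the 4 genes named titin, of which LOC100642686 and LOC100643650 were lower. Twitchin (LOC100644118), a giant muscle kinase with a long transcript, was at 4.75 and 4.05 ppm in eggs and at 179, 162 and 151 in OA ovary. Myosin regulatory light chain 2 and troponin I were above every OA library in egg replicate 1 and under 1 ppm in replicate 2. No muscle gene was at 0 in any of the 5 libraries. Both genes of the fat body list and all 4 haemocyte genes had negative differences. The haemocyte genes summed to 12.3 and 0.548 ppm in egg replicates 1 and 2 and to between 5.45 and 15.2 in OA ovary. At such levels the pseudocount of 1 ppm left little room for a lower call. The fat body list held transferrin receptor protein 1 and an alpha-glucosidase, and the nervous tissue list held 2 proteins of vesicle traffic, which many cell types express. The nervous tissue gene called lower was syntaxin-1A (LOC100643945), a protein of vesicle fusion, with 29.0 and 22.3 ppm in eggs and 187, 187 and 162 in OA ovary.

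Most genes of the ribosome and the proteasome were kept on this scale, beside 55.3% of all shared genes. The length term, which makes short transcripts look higher in eggs, was not removed, so a difference near 0 need not mean equal levels. Of 23 cytosolic ribosomal protein genes 19 (82.6%) were kept, with a median difference of 0.05, and of 14 proteasome subunits 13 (92.9%) were kept, with a median of -0.03. Of 13 mitochondrial ribosomal protein genes 11 (84.6%) were kept, and of 20 genes of oxidative phosphorylation 12 (60%). Neither of these lists held a higher or lower gene, beside 1.31% higher and 8.66% lower among all shared genes. In the cytosolic ribosomal list the 1 gene called lower was 40S ribosomal protein S6 (LOC100643777), and S28 (LOC100644626), L23 (LOC100643421) and L36 (LOC100644187) met no rule, with differences of -2.03, 1.31 and 1.16. S6 was at 2117, 2299 and 3665 ppm in OA ovary and at 352 and 13.5 in eggs, so both egg libraries were below the ovary and far from each other. 60S ribosomal protein L37 (LOC100644788), the member nearest to no difference, was at 303, 299 and 470 ppm in OA ovary and at 481 and 266 in eggs. Of the 14 translation factors 9 (64.3%) were kept. The inhibitor of translation eIF4E-binding protein (LOC100643384) was at 2242 and 2490 ppm in eggs and at 426, 485 and 637 in OA ovary, and elongation factor 1-alpha (LOC100631084) at 2083 and 1282 in eggs and at 4018, 4181 and 4219 in OA ovary.

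Heat shock proteins and chaperones were kept in 7 of 10 genes and lower in 2, beside 55.3% and 8.66% of all shared genes. T-complex protein 1 subunit delta (LOC100642585) was at 65.0 and 25.4 ppm in eggs and at 387, 361 and 380 in OA ovary, while subunit epsilon (LOC100644778) of the same folding complex was at 652 and 561 in eggs and at 530, 558 and 547 in OA ovary. Subunit delta was thus called lower and subunit epsilon kept, and the contrast between them was not tested.

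Histones, which package DNA, formed the list with the highest median, 2.37 over 6 genes, of which 3 were higher and 1 lower. Among all shared genes 1.31% were higher and 8.66% lower. Histone H2A (LOC100644480) was at 3468 and 3280 ppm in eggs, among the 10 highest genes of the eggs, and at 576, 653 and 758 in OA ovary. Histone H4 (LOC100643875) was at 2466 and 2436 ppm in eggs and at 211, 250 and 507 in OA ovary. Histone H2B-like (LOC100644116) was at 1804 and 2132 ppm in eggs and at 165, 227 and 332 in OA ovary. Histone transcripts are short, and the length term, which makes short transcripts look higher in eggs, was not removed. The 2 genes for the replacement histone H3.3 went in opposite directions. LOC100631090 was at 53.4 and 4.12 ppm in eggs and at 436, 348 and 405 in OA ovary, and LOC100644906 was at 519 and 723 in eggs and at 346, 330 and 209 in OA ovary.

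DNA replication genes, at a median of 0.83 over 10 genes, held no higher or lower gene. Among all shared genes 1.31% were higher and 8.66% lower. Cell division control protein 45 (LOC100643521), part of the replicative helicase, was at 155 and 188 ppm in eggs and at 39, 35.7 and 26.6 in OA ovary. The small subunit of DNA polymerase delta (LOC100644725) was at 128 and 167 ppm in eggs and at 32.2, 37.0 and 32 in OA ovary. The catalytic subunit of DNA polymerase epsilon (LOC100644263), a long gene product, went the other way, with 4.08 and 4.27 ppm in eggs and 18.4, 18.9 and 13.8 in OA ovary. Of 4 cyclins and mitotic kinases 3 were kept, with a median of 0.41, beside 55.3% kept among all shared genes. In the spliceosome list, at a median of 0.60 over 14 genes, 1 gene was higher, beside 1.31% of all shared genes. It was small nuclear ribonucleoprotein E (LOC100644068), with 264 and 254 ppm in eggs and 44.8, 47.3 and 47.7 in OA ovary. The length term was not removed from these values.

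Regulators of stored maternal mRNA were split, with 1 of them among the most abundant egg messages. LSM14 homolog A (LOC100643415), which holds mRNA in a silent state, was at 8373 and 9343 ppm in eggs and at 2924, 3896 and 2683 in OA ovary. It was the fourth highest gene of the eggs. The poly(A) polymerase gld-2 (LOC100644027), which lengthens mRNA tails in oocytes, was at 305 and 348 ppm in eggs and at 106, 127 and 70.2 in OA ovary. The general poly(A) polymerase type 3 (LOC100643840) was lower, with 13.7 and 10.3 ppm in eggs and 76.3, 68.8 and 81.5 in OA ovary. Over the 7 genes of the list, 1 was lower, 0 were higher and the median was -0.34, beside 8.66% lower among all shared genes.

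Germ line genes were detected in all 5 libraries, with a sum of 2403 to 3684 ppm over the 6 of the list, and were split. Piwi-like protein Ago3 (LOC100644656), which binds small RNAs that silence transposons, was lower, with 6.41 and 4.80 ppm in eggs and 90.4, 79.5 and 64.1 in OA ovary. Maelstrom 2 (LOC100644702), of the same pathway, was at 2686 and 2978 ppm in eggs and at 650, 752 and 842 in OA ovary, a difference of 1.93 that fell short of the rule. Maternal protein tudor (LOC100644474), a scaffold of germ granules, was kept. Of 6 genes, 1 was lower and 0 were higher, with a median of -1.01, beside 8.66% lower among all shared genes.

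Embryonic patterning factors held no higher or lower gene among 12, with a median of -0.84. Among all shared genes 1.31% were higher and 8.66% lower, so with 12 genes such counts are near these shares. The list goes by names and includes giant-lens and twisted gastrulation, secreted proteins, and bicaudal C, which is in the germ line list too. Gooseberry-neuro (LOC100643419), a segment polarity factor in Drosophila, was at 266 and 230 ppm in eggs and at 41.2, 59.4 and 44.5 in OA ovary. Embryonic polarity protein dorsal (LOC100631054), which sets the back-to-belly axis in Drosophila, was at 17.0 and 14.8 ppm in eggs and at 64.9, 52.4 and 45.6 in OA ovary. Of the 4 genes on yolk and its uptake 3 were kept, beside 55.3% of all shared genes. The vitellogenin-like precursor (LOC100643258) was at 47.1 and 58.4 ppm in eggs and at 40.3, 64.6 and 54.6 in OA ovary, so the groups overlapped. It was at 4.87, 15.4 and 3.59 in OI ovary (3.34 ± 0.515, limma adjusted p = 0.00155). Whether genes without a name include another vitellogenin gene was not examined, so these values speak for LOC100643258 alone. Of 7 chemosensory receptors 5 were kept, beside the same 55.3%, and 0 were higher or lower. Odorant receptor 13a (LOC100643382) was at 45 and 50.6 ppm in eggs and at 33.8, 55.6 and 38.9 in OA ovary, against 0.111, 12.3 and 0.216 in OI ovary.

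The 132 genes higher in eggs were led by genes with no descriptive name. LOC105667015 was at 1489 and 1497 ppm in eggs and at 25.9, 30.4 and 31.1 in OA ovary, 46.4-fold between the nearest libraries on the log2(ppm + 1) scale. LOC105667027 was at 3828 and 3961 ppm in eggs and at 81.0, 124 and 103 in OA ovary. LOC105666794 was at 1329 and 1265 ppm in eggs and at 39, 48.6 and 35.2 in OA ovary. These 3 genes were close to 0 in OI replicates 1 and 3, at most 0.185 ppm, and at 0.578, 8.47 and 1.12 in OI replicate 2. All 3 were higher in OA than in OI ovary, with limma adjusted p of 0.000445, 0.00343 and 0.000814. They were absent from the brain table.

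Of the higher genes, 2 were listed at 0 in all OA libraries. LOC110120177 was at 36.7 and 120 ppm in eggs and at 0.960, 2.89 and 1.86 in OI ovary. LOC105666807 was at 25.1 and 69.2 ppm in eggs and at 3.43, 4.36 and 3.85 in OI ovary. No fold against OA ovary is given for them.

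Among named genes, Kr-h1, a transcription factor that responds to juvenile hormone, was at 134 and 117 ppm in eggs and at 14.3, 14.3 and 7.94 in OA ovary. It was at 25.8, 21.0 and 29.5 in OI ovary, so eggs were above both kinds of ovary. The OA ovary was below the OI ovary (log2 fold change -0.76 ± 0.249, limma adjusted p = 0.0329), a call that held in 7 of 10 alternative settings, with adjusted p from 0.0126 to 0.11. Arrestin domain-containing protein 17 (LOC100642684) was at 964 and 1130 ppm in eggs and at 61.5, 83.8 and 78.0 in OA ovary. TRIM71 (LOC100644146), an mRNA-binding ubiquitin ligase that acts in early development in other animals, was at 206 and 229 ppm in eggs and at 33.5, 34.0 and 30.4 in OA ovary. A glucose transporter (LOC100644539) was at 515 and 640 ppm in eggs and at 41.9, 54.6 and 14.9 in OA ovary, and the inositol transporter LOC100644618 at 215 and 262 in eggs and at 19.0, 29.5 and 9.52 in OA ovary. Larval cuticle protein LCP-17-like (LOC100644305) was at 190 ppm in egg replicate 1 and 24.7 in replicate 2, against 0.419, 0.628 and 1.37 in OA ovary.

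**Figure D4:**
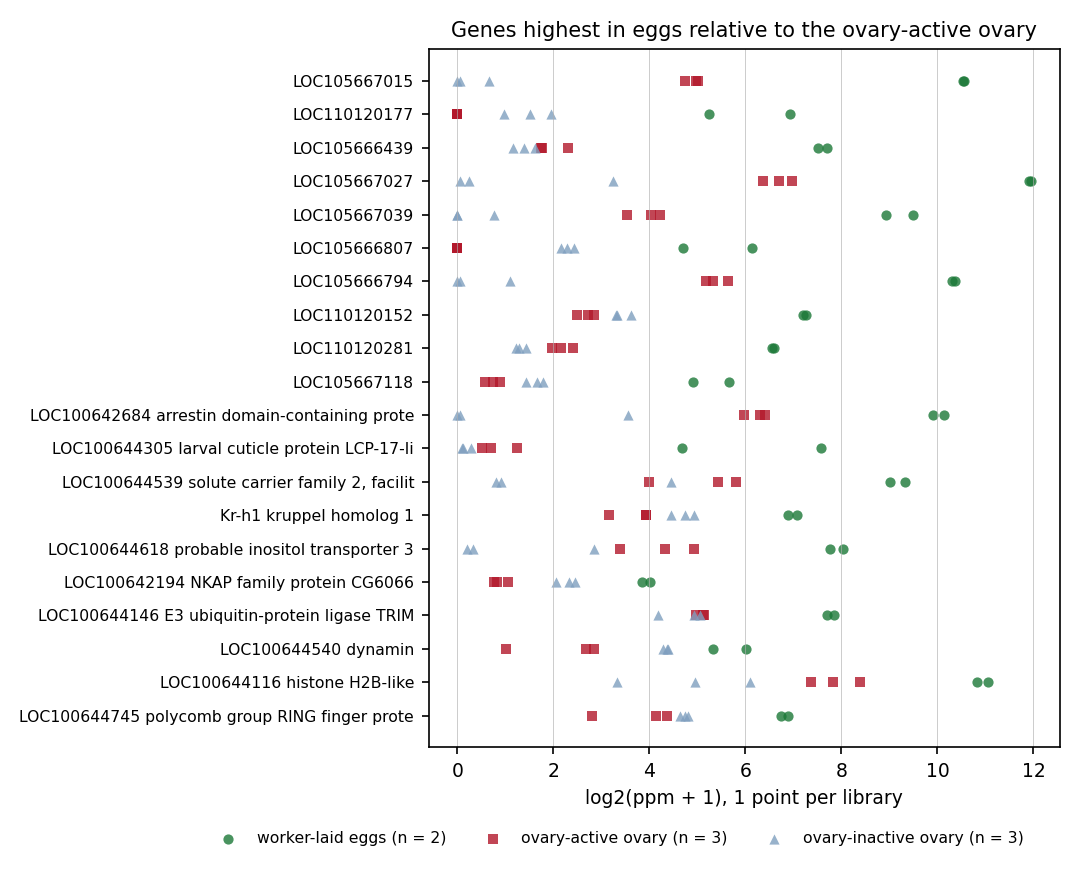
Level as log2(ppm + 1) of the 10 called genes with the largest gap above the OA ovary and of the 10 with the largest gap that have a descriptive name, 1 point per library (eggs 2, OA ovary 3, OI ovary 3). Egg points lie right of all OA points in every row, and LOC110120177 and LOC105666807 have all OA points at 0.

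The sex determination gene fem was kept, with 15.1 and 14.1 ppm in eggs and 15.8, 12.8 and 5.45 in OA ovary, against 58.2, 49.4 and 66.6 in OI ovary (-2.14 ± 0.34, limma adjusted p = 0.00174). The gene for peroxisomal membrane protein PMP34 (LOC100644134) was at 576 and 614 ppm in eggs and at 208, 247 and 290 in OA ovary, which met no rule.

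Levels in other tissues were compared between the called genes and all shared genes. The tables of the other tissues were normalized apart, so levels are described and not tested. A gene called lower had to be well above 0 in OA ovary, and a gene called higher had to be well above 0 in eggs. At 10 ppm or more on average in brain were 23.5% of the 132 higher genes, 83% of the 874 lower genes and 76.0% of all shared genes. In fat body the shares were 13.6%, 67.6% and 61.9%. In OI ovary they were 43.2%, 87.9% and 75.9%. Absent from the brain table were 24 of the higher genes (18.2%) and 7 of the lower genes (0.801%). At a 32-fold limit, chosen after the values were seen, 65 genes were lower in eggs (0.644% of those compared) and 3 were higher (0.0297%).

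Some genes higher in eggs were next to each other in the genome. In the order of genes on the RefSeq assembly iyBomTerr1.2, which is a later build than the one the authors used, 86 of the 132 higher genes and 850 of the 874 lower genes could be placed. Of the higher genes, 24 (27.9%) had another higher gene as the next shared gene on either side, as had 1.70% of all 9462 placed genes. Of the lower genes, 180 (21.2%) had a lower gene on either side, as had 17.1% of all placed genes. In 1 run of 4 genes, LOC100645616, LOC100645738, LOC100645858 and LOC100645974 followed one another, at 2611 and 2918, 2012 and 2095, 2344 and 2393, and 696 and 639 ppm in eggs. Their highest OA value was 338 ppm, in OA replicate 3 for LOC100645616. Histone H4 stood in a run of 3 with LOC100649610, at 264 and 60.2 ppm in eggs, and LOC105665767, at 2026 and 2010. Neighbouring genes of like sequence can share reads in pseudoalignment, which was not tested.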

How the data were processed

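Libraries were 50 bp single-end mRNA-seq. Pseudoalignment by the authors used kallisto 0.46.1 and transcripts of the Bter_1.0 build. For eggs the authors deposited estimated counts from tximport (scaledTPM), which are corrected for length and add up to the pseudoaligned reads of a library. For tissues the authors deposited signal values, which are counts normalized with DESeq2 1.34.0 in R 4.1.3 within a tissue and not corrected for length. No column of the tables was left out.

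Here, samples were grouped by their labels. Shared genes were scaled to 1000000 per library, a pseudocount of 1 ppm was added, and calls were made as the report states, with no test across tables. For OA against OI ovary, limma 3.58.1 (R 4.3.3) was fitted to log2(normalized count + 1) of genes averaging 10 or more, with a variance trend and Benjamini-Hochberg adjustment. A gene was called at an adjusted p under 0.05. Replicates are pools, and p-values measure the spread between pools. Both procedures were run on simulated data. For the calls, the simulated libraries had no length term and all had the same spread, unlike the real ones, so those limits were not covered. Other steps used Python 3.11.15 with numpy 2.4.6, pandas 2.3.3 and matplotlib 3.10.9.

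Named genes are the 10 with the largest gap in each direction, the 10 with a descriptive name, and the 10 highest in eggs and in OA ovary. They also include up to 4 examples per list (the 3 largest differences and the smallest, among members at 10 ppm or more). The vitellogenin-like precursor, Kr-h1 and fem complete them. Genes of egg replicate 1, genes in neighbouring runs, and LOC100648898, LOC100651683 and LOC100644134, which the paper's text pairs with a name, were added after values were seen. The 22 lists are patterns matched to gene names. Members and lists were chosen with earlier results of these data known.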

Additional observations from a re-analysis of the deposited data

Results flagged for a closer look

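The egg table held 574 genes that were not in the ovary table and so entered no comparison. Their estimated counts summed to 202932 in egg replicate 1 and to 2051 in egg replicate 2, which drew attention as a signal in data outside the comparison that differs between the egg libraries. In parts per 1000000 of the egg table (ppm) these sums were 4045 and 39.2. At 1 ppm or more were 66 of the genes in replicate 1, 6 in replicate 2 and 5 in both, and 278 were at 0 in both. The highest, LOC100647563, had an estimated count of 76008 in replicate 1 and 26.8 in replicate 2. With 2 egg libraries there is no spread to set this difference against.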

How the results depend on the processing

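No paired analysis was possible for eggs against OA ovary because the result comes from no test. In place of 132 higher, 874 lower and 5579 kept genes, rank percentiles gave 249 higher and 390 lower, a pseudocount of 5 gave 460 lower, a 2-fold limit gave 733 and 2234, an 8-fold limit 36 and 317, and a 32-fold limit, added after seeing the data, 3 and 65. Leaving out 1 library gave 135 to 265 higher, 883 to 1464 lower and 5265 to 5859 kept genes. The rules for higher and lower use the nearest libraries, so leaving 1 out can only add such calls. That all 132 and 874 calls remained was therefore fixed in advance. Median-of-ratios scaling moved the median difference from -0.32 to -0.23. Of the 143 named genes, 0 changed sign where called. Genes called higher or lower are at least 4-fold apart between the nearest libraries, so a change of sign was unlikely. Of the named genes, 48 moved by more than the spread with a pseudocount of 5, 31 with one of 0.1 and 26 with median-of-ratios scaling. A correction by coding length was not run.

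For OA against OI ovary, equal totals gave 1572 genes higher in OA in place of 2592. Leaving out 1 library gave 1952 to 2590 higher in OA and 1876 to 2601 higher in OI. With the replicate number as a block, 2086 were higher in OA and 2096 in OI. Deviations of same-numbered pools correlated at -0.0592, 0.163 and -0.176. With so few pools these values cannot decide whether the numbers pair them, and the main fit left them unpaired. The study matched OA with OI ovary pools by age, in the order of the pool numbers, but no source read here ties those pools to replicate numbers. If the replicates follow the same order, the block above is that pairing.

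The unlike length correction, the pair of egg libraries and the names at hand limit the comparison. As to depth, a deposited value of 1 stood for 0.0191 to 0.0349 ppm in eggs and OA ovary. With 2 egg pools the spread within eggs is poorly known.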

Other observations

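Among the OI libraries, replicate 2 had the highest level for 77 of the 132 genes higher in eggs (58.3%), against 32.2% of all shared genes above 0 in OI ovary. The median level of those 132 genes was 5.66, 8.20 and 4.30 ppm in OI replicates 1, 2 and 3. For the 874 genes lower in eggs, of which 873 were above 0 in OI ovary, replicate 3 had the highest level for 582 (66.7%), against 36.7% of all shared genes.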
